A study of Homo sapiens with 4 samples.

Results

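The genes described here are the 46 proteasome subunit genes of a table of 17791 genes, chosen as every gene whose symbol is PSMA, PSMB, PSMC, PSMD, PSME, PSMF or PSMG followed by a number. They were read in 4 bulk RNA sequencing libraries, each the only library of its group. The material was engineered prostate cancer tissue, cells held in a PEG-fibrinogen hydrogel at 20000000 cells per mL and taken at day 15. The LNCaP coculture held LNCaP cells with BJ-5ta fibroblasts at 5 parts to 1, and the LNCaP monoculture held LNCaP cells alone. The PC-3 coculture held PC-3 cells with BJ-5ta fibroblasts at the same ratio, and the PC-3 monoculture held PC-3 cells alone. LNCaP is an androgen-sensitive, androgen receptor-positive line from a lymph node metastasis, PC-3 is an androgen receptor-negative line from a bone metastasis, and BJ-5ta is a foreskin fibroblast line immortalised with telomerase. Each is an established line, so each group stands for 1 line and not for prostate cancers at large. RNA came from more than 2 tissues per group, and whether it was pooled is not stated. The growth protocol describes PC-3 tissues and gives no medium for LNCaP.

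The proteasome degrades proteins tagged with ubiquitin. Its 20S core is a barrel of outer α rings and inner β rings, and the β subunits PSMB5, PSMB6 and PSMB7 cut the substrate. The 19S particle caps the barrel, binds and unfolds the substrate with its PSMC ATPases and removes ubiquitin with its PSMD subunits. In immune cells and in cells exposed to interferon, PSMB8, PSMB9 and PSMB10 replace the constitutive cutting subunits, and this immunoproteasome, often with the PSME1 and PSME2 cap, makes peptides for MHC class I. PSMD5, PSMD9 and PSMD10 help to build the 19S base, and PSMG1 to PSMG4 help to build the 20S core.

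The 46 genes comprised 7 α subunits, 7 constitutive β subunits, 3 immunoproteasome β subunits, 6 ATPases and 11 other subunits of the 19S particle, 3 chaperones of the 19S base, 4 alternative caps, the regulator PSMF1 and 4 chaperones of the 20S core. PSMA8 and PSMB11, subunits restricted to testis and thymus, were not analysed here. The libraries held between 15520243 and 15865690 estimated counts, and 45 of the 46 genes reached 1 CPM (counts per 1000000, scaled by the trimmed mean of M-values) in all 4 libraries. The libraries went with their labels: KLK3, the prostate-specific antigen gene, had 74134 and 60226 counts in the LNCaP coculture and monoculture and was at 0 in both PC-3 libraries. The summed level of 12 fibroblast markers was 900.2 CPM in LNCaP coculture and 1.08 CPM in LNCaP monoculture, where COL1A2, DCN, LUM, PDGFRA, FAP and MMP2 were at 0. It was 510.5 CPM in PC-3 coculture and 50.8 CPM in PC-3 monoculture, where THY1, MMP2, TIMP3 and CD248 were at 0. Most of the PC-3 monoculture sum came from COL6A3, at 37.3 CPM, and PDGFRA, at 11.7 CPM. These markers were thus not particular to fibroblasts in PC-3 tissue. With 1 library per group no spread between tissues could be estimated, so no comparison below has a test. Each fold is given with a 95% exact interval that covers counting error only.

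Proteasome genes took a similar part of each library. Together they had 4573 CPM in LNCaP coculture, 4536 CPM in LNCaP monoculture, 4688 CPM in PC-3 coculture and 5068 CPM in PC-3 monoculture. In bulk tissue a smaller number of cells of a type and less RNA per cell cannot be told apart, here or in the results that follow. Levels between genes were compared per kilobase of transcript. The core β subunit PSMB4 was the highest member in both LNCaP libraries, at 292 and 315 CPM per kilobase in the LNCaP coculture and monoculture. In PC-3 tissues the highest were PSMB5 in the coculture, at 219.8 CPM per kilobase, and the α subunit PSMA7 in the monoculture, at 260.5 CPM per kilobase. Within the constitutive 20S rings PSMA5 and PSMB2 were the lowest α and β subunits in every library, at 24.0 to 30.5 and 25.1 to 37.7 CPM per kilobase. Per kilobase, RNA levels of subunits that share a ring thus differed several-fold. Ranks per kilobase, here and below, depend on the transcript length used. By CPM, PSMB6 was below PSMB2 in every library, at 51.8 to 64.7 CPM beside 86.9 to 130.5 CPM. PSMA3 was below PSMA5 by CPM in LNCaP monoculture, at 73.5 and 79.8 CPM. PSMC1 was the lowest of the 19S ATPases in every library, at 16.4 to 23.3 CPM per kilobase. PSMD10 was the highest chaperone of the 19S base, at 100.6 to 126.7 CPM per kilobase. Among the caps PSME4 was the lowest, at 8.55 to 18.2, and PSME1 the highest, at 82.1 to 180.3 CPM per kilobase.

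**Figure D1:**
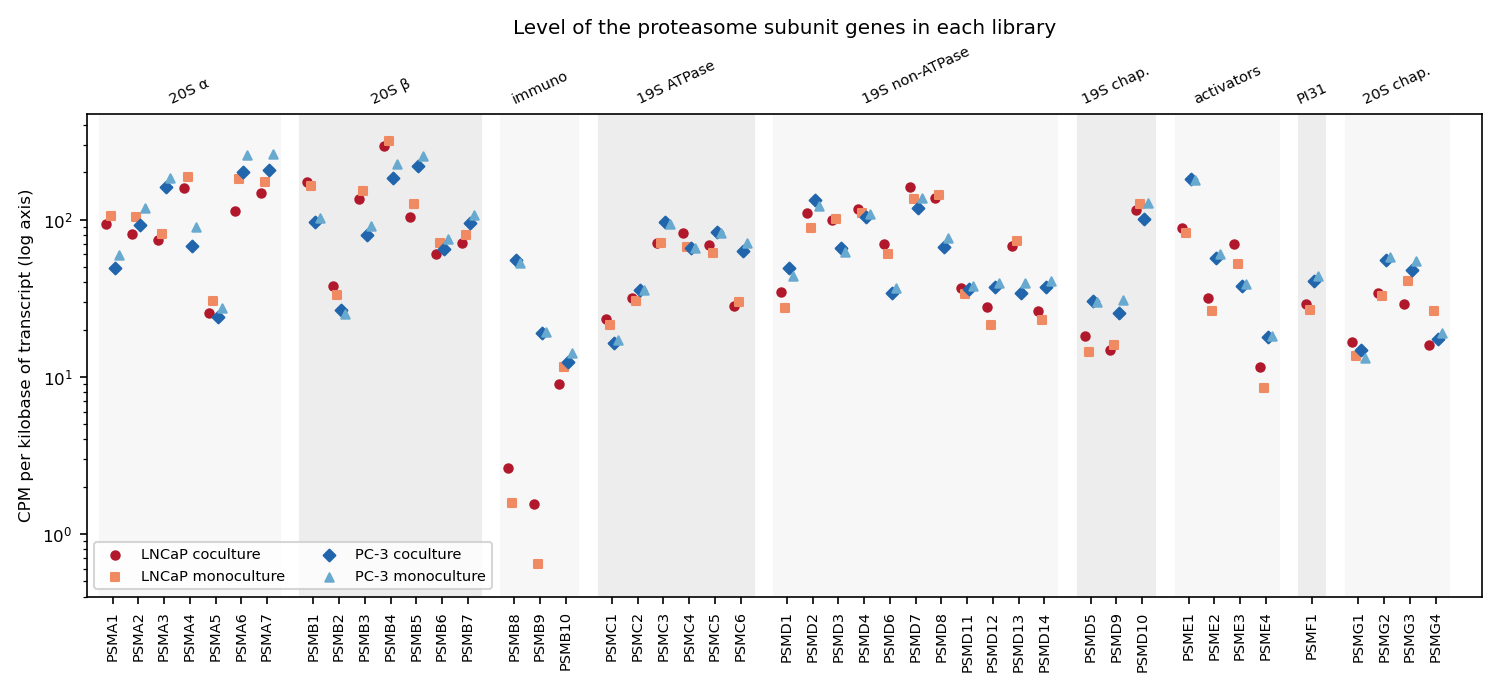
Level of each proteasome subunit gene (vertical axis, CPM per kilobase of transcript, log axis) in the 4 libraries, 1 point per library, with genes grouped by their place in the complex. Most genes lie within a narrow band in all 4 libraries, whereas PSMB8 and PSMB9 are at 0.644 to 2.64 CPM per kilobase in the LNCaP libraries and at 19.1 to 55.5 CPM per kilobase in the PC-3 libraries.

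The ubiquitin receptor PSMD4 was the steadiest member: it had 155.6 CPM in LNCaP coculture, 147.7 CPM in LNCaP monoculture, 140.4 CPM in PC-3 coculture and 144.6 CPM in PC-3 monoculture. Its highest library stood 1.11-fold above its lowest. That ratio was 35.2 for PSMB8 and 29.9 for PSMB9, and ran from 1.11 to 2.73 over the other members. The immunoproteasome subunits, with PSMB10 as the exception, were thus the members that differed most between libraries.

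PSMB8, the immunoproteasome counterpart of PSMB5, was nearly silent in LNCaP tissues and moderately expressed in PC-3 tissues. It had 2.97 CPM (46 counts) in LNCaP coculture, 1.77 CPM (28 counts) in LNCaP monoculture, 62.3 CPM in PC-3 coculture and 59.4 CPM in PC-3 monoculture. The level was 33.5-fold lower in LNCaP than in PC-3 monoculture (interval 23.0 to 50.7) and 21.0-fold lower in LNCaP than in PC-3 coculture (15.6 to 28.9). The annotated gene spans of PSMB8 and the antisense gene PSMB8-AS1, introns included, share 594 bases, and the library kit does not mark strand. PSMB8-AS1 had 21 counts in LNCaP coculture, 12 in LNCaP monoculture, 83 in PC-3 coculture and 69 in PC-3 monoculture. Beside the 46 and 28 counts of PSMB8 in LNCaP tissues these are not small, and the part of shared reads in the low PSMB8 values was not tested.

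PSMB9, the counterpart of PSMB6, followed the same order. It had 1.22 CPM (19 counts) in LNCaP coculture, 0.507 CPM (8 counts) in LNCaP monoculture, 15.1 CPM in PC-3 coculture and 15.2 CPM in PC-3 monoculture. The level was 29.9-fold lower in LNCaP than in PC-3 monoculture (interval 14.9 to 70.1) and 12.3-fold lower in LNCaP than in PC-3 coculture (7.70 to 20.8). PSMB10, the counterpart of PSMB7, did not share this gap, with 11.0 CPM in LNCaP coculture, 14.1 CPM in LNCaP monoculture, 15.1 CPM in PC-3 coculture and 17.4 CPM in PC-3 monoculture. It was 1.23-fold lower in LNCaP than in PC-3 monoculture (1.03 to 1.47). In the LNCaP against PC-3 coculture comparison PSMB10 lay at a log2 fold of -0.45.

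The make-up of the cutting subunits, read as the immunoproteasome share of each pair, showed the same split without any scaling between libraries. PSMB8 took 2.77% of the counts of PSMB8 and PSMB5 in LNCaP coculture (exact 95% binomial interval 2.03 to 3.67), 1.38% in LNCaP monoculture (0.918 to 1.99), 22.0% in PC-3 coculture (20.7 to 23.2) and 18.9% in PC-3 monoculture (17.9 to 20.1). PSMB9 took 2.31% in LNCaP coculture, 0.826% in LNCaP monoculture, 21.2% in PC-3 coculture and 18.98% in PC-3 monoculture, of its pair with PSMB6. PSMB10 took between 13.6% and 15.3% of its pair in all 4 libraries. Per kilobase, PSMB5 RNA was 79.7 times that of PSMB8 in LNCaP monoculture and 4.77 times that of PSMB8 in PC-3 monoculture. The constitutive subunit was the more abundant of each pair in every library.

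**Figure D2:**
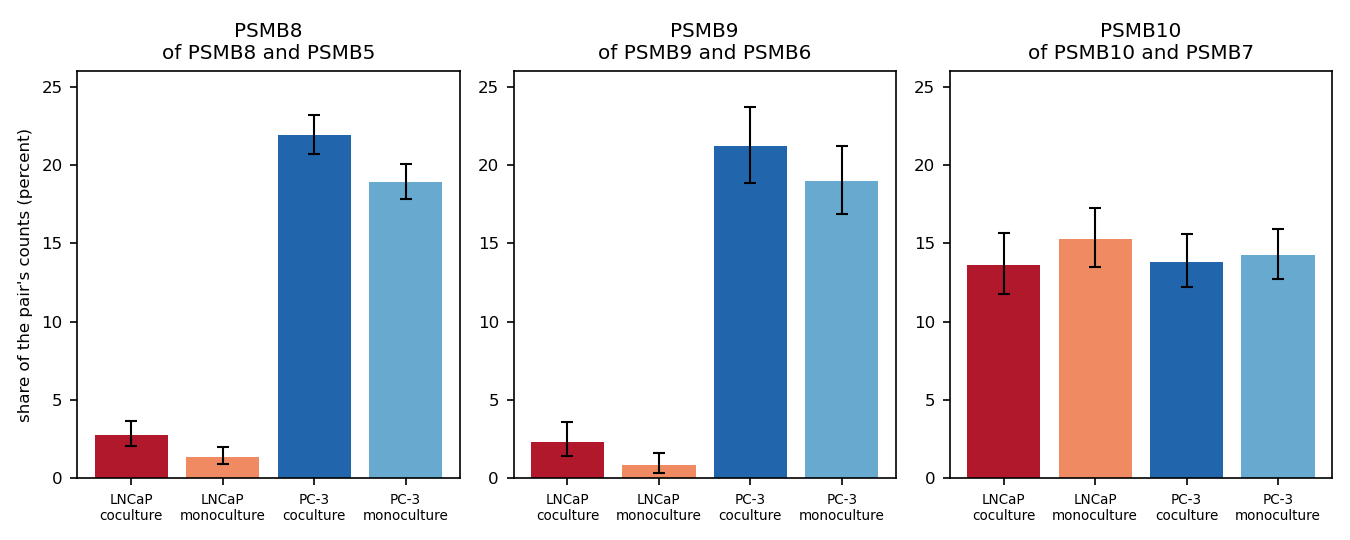
Share of each pair's counts (vertical axis, percent, from 0) taken by the immunoproteasome subunit in the 4 libraries, with exact 95% binomial intervals for counting error as bars on the columns. PSMB8 and PSMB9 hold 0.826% to 2.77% in LNCaP tissues and 18.9% to 22.0% in PC-3 tissues, whereas PSMB10 holds 13.6% to 15.3% throughout.

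The promoters of these genes are shown because the line gap was wide for some interferon-responsive subunits and small for PSMB10. They are RefSeq promoters on GRCh38.p14, from 250 bases before to 50 bases after the annotated start, read along the gene. They lie at chr6:32843998-32844297 (minus strand, 1 of 2 annotated PSMB8 starts), chr6:32853942-32854241 (plus strand), chr16:67936801-67937100 (minus strand), chr14:24135944-24136243 (plus strand) and chr14:24146561-24146860 (minus strand). Capitals mark matches to an interferon-stimulated response element (GAAA, any 2 bases, then GAAA) or to a gamma-activated sequence, TTCNNNGAA, where N is any base. Both strands were searched.
PSMB8: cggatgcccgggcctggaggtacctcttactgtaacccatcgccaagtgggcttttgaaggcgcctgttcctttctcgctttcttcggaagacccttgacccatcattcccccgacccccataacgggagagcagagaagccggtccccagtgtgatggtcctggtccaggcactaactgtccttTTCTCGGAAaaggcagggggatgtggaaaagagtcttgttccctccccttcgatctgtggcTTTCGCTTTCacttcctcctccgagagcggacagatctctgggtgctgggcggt
PSMB9: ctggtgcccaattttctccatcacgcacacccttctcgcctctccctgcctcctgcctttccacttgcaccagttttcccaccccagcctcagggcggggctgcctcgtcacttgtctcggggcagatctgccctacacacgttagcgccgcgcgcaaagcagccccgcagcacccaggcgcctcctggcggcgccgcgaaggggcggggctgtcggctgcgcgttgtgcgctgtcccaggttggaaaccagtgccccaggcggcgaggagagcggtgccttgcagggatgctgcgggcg
PSMB10: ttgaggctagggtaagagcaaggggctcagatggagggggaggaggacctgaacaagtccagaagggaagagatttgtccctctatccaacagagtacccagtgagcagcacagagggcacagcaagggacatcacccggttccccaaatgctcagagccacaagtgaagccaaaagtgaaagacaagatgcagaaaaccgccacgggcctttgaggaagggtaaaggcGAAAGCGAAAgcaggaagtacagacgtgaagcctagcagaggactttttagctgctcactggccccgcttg
PSME1: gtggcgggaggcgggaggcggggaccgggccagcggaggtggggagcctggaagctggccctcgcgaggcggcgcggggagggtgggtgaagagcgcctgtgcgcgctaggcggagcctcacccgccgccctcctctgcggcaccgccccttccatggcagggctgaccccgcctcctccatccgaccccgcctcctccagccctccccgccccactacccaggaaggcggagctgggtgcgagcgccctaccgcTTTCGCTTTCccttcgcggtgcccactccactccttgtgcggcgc
PSME2: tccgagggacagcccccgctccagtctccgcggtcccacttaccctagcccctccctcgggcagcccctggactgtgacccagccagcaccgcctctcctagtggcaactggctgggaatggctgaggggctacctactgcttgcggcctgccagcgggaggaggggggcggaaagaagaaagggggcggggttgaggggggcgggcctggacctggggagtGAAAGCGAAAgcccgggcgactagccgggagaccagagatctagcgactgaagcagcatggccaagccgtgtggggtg
The interferon-stimulated element occurred in the PSMB8, PSMB10, PSME1 and PSME2 windows, with the same core letters on either strand (GAAAGCGAAA, or TTTCGCTTTC on the other strand). PSMB8 also held a gamma-activated sequence, TTCTCGGAA, 65 to 57 bases before this start. The window of the other annotated PSMB8 start, not shown, held no match to either motif. The PSMB9 window held no match to either motif. The interferon-stimulated element was in the windows shown for PSMB8, PSME1 and PSME2, all at least 2-fold lower in LNCaP than in PC-3 monoculture. It was also in that of PSMB10, at 14.1 CPM in LNCaP and 17.4 CPM in PC-3 monoculture. Of 40 members with a promoter in the table, 7 held this element (17.5%), against 4.38% of all genes and 3.57% of all 35116 promoters. The other members were PSMA4, PSMB4 and PSMG4, each higher in LNCaP than in PC-3 monoculture. PSMA4 had 175.4 and 84.4 CPM, PSMB4 303.2 and 216.7 CPM, and PSMG4 20.3 and 14.7 CPM in the LNCaP and PC-3 monoculture. TTCNNNGAA occurred in 7 members (17.5%), against 9.38% of genes and 7.66% of promoters. TGACNNNGC, an antioxidant response element of the kind that NFE2L1 binds, occurred in 15 members (37.5%), against 16.1% of genes and 13.3% of promoters. A match in these windows is a description of letters and not a binding site.

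The alternative caps differed by type. PSME1 and PSME2, the interferon-inducible PA28 cap, were lower in LNCaP tissues. PSME1 had 90.4 CPM in LNCaP coculture, 83.7 CPM in LNCaP monoculture, 183.9 CPM in PC-3 coculture and 182.3 CPM in PC-3 monoculture, and was 2.18-fold lower in LNCaP than in PC-3 monoculture (interval 2.04 to 2.33). PSME2 had 25.8 CPM in LNCaP coculture, 21.3 CPM in LNCaP monoculture, 46.7 CPM in PC-3 coculture and 49.2 CPM in PC-3 monoculture, and was 2.31-fold lower in the same comparison (2.03 to 2.63). PSME4, the nuclear PA200 cap, was 2.13-fold lower (1.97 to 2.30). PSME3, the nuclear PA28γ cap, went the other way: it had 215.8 CPM in LNCaP coculture, 160.2 CPM in LNCaP monoculture, 116.4 CPM in PC-3 coculture and 120.8 CPM in PC-3 monoculture. It was 1.33-fold higher in LNCaP than in PC-3 monoculture (1.249 to 1.407) and 1.85-fold higher in LNCaP than in PC-3 coculture (1.75 to 1.96).

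Across all members, the LNCaP against PC-3 monoculture comparison had a median log2 fold of -0.26, beside 0.04 over all genes at 1 CPM or more in 1 of the libraries. A log2 fold of 0.32 or more from 0, a level at least 25% higher or 20% lower, was used as the smaller threshold. At least 20% lower in LNCaP were 22 of 46 members, beside 38.7% of all genes, and at least 25% higher were 13, beside 40.9%. At least 2-fold lower were 9 members, beside 23.6%, and at least 2-fold higher was 1, the α subunit PSMA4, beside 22.1%. PSMA4 was under 2-fold with DESeq2 size factors (log2 fold 0.99) and with a correction for transcript length and GC content (0.85), which left 0 members at least 2-fold higher. Among genes at 20 CPM or more, 19.8% were at least 2-fold lower and 18.1% at least 2-fold higher. The share of members at least 2-fold higher lay under both backgrounds. The share at least 2-fold lower lay near that of genes at 20 CPM or more. The 9 members were PSMB8, PSMB9, PSMC6, PSME2, PSMA3, PSME1, PSME4, PSMD5 and PSMB5.

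The LNCaP against PC-3 coculture comparison gave a median of -0.24 (0.01 over all genes). In it 21 members were at least 20% lower, beside 39.7% of genes, and 13 were at least 25% higher, beside 39.5%. At least 2-fold lower were 6, beside 23.6%, and at least 2-fold higher were 3, PSMA4, PSMD6 and PSMD8, beside 20.7%; with the length and GC correction this count was 1. The 6 were PSMB8, PSMB9, PSMC6, PSMA3, PSMB5 and PSME1. The lid subunit PSMD13 was 1.97-fold higher (interval 1.81 to 2.14). The culture types share no library but compare the same lines, so their results are not independent. The cocultures also held fibroblast markers, at summed levels of 900.2 CPM with LNCaP and 510.5 CPM with PC-3 cells. In both comparisons 20 members were at least 20% lower in LNCaP (43.5%, beside 34.7% of genes). At least 25% higher in both were 12 (26.1%, beside 35.0%). Signs were opposite for 4 members (8.70%, beside 9.89%).

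The line difference did not run one way within the core. In the monoculture comparison 7 of the 14 constitutive 20S genes were above 0, beside 51.3% of all genes, and 7 were below, beside 48.7%. PSMA4 was 2.08-fold higher in LNCaP monoculture (interval 1.94 to 2.22), with 175.4 CPM against 84.4 CPM in PC-3 monoculture. PSMA1 was 1.75-fold higher (1.64 to 1.87). The α subunit PSMA3 was 2.29-fold lower (2.13 to 2.45), with 73.5 CPM in LNCaP monoculture and 168.1 CPM in PC-3 monoculture. The main chymotrypsin-like subunit PSMB5 was 2.00-fold lower (1.90 to 2.12), with 126.8 CPM in LNCaP monoculture and 254.2 CPM in PC-3 monoculture. Both cocultures showed these directions, with PSMA4 2.34-fold higher (2.18 to 2.53) and PSMB5 2.13-fold lower (2.00 to 2.26) in LNCaP tissue. Subunits of a single ring thus differed in opposite directions between the lines.

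The 19S particle was also split in the monoculture comparison. Of its 17 subunits 7 were above 0, beside 51.3% of all genes, and 10 were below, beside 48.7%. The lid subunits PSMD8, PSMD13, PSMD6 and PSMD3 were 1.86-fold (interval 1.76 to 1.97), 1.85-fold (1.71 to 2.00), 1.65-fold (1.51 to 1.80) and 1.61-fold (1.53 to 1.70) higher in LNCaP monoculture. PSMD12 and the deubiquitinase PSMD14, also of the lid, were 1.83-fold (1.71 to 1.97) and 1.77-fold (1.61 to 1.94) lower. Among the ATPases PSMC6 was 2.37-fold lower (2.18 to 2.59), with 47.4 CPM in LNCaP monoculture and 112.4 CPM in PC-3 monoculture, and PSMC1 was 1.254-fold higher (1.141 to 1.378). The ATPases PSMC3 and PSMC5 lay at log2 folds of -0.41 and -0.42. The base chaperones PSMD5 and PSMD9 were 2.08-fold (1.83 to 2.37) and 1.94-fold (1.75 to 2.15) lower, and PSMD10 was at 97.4 CPM in LNCaP monoculture and 98.7 CPM in PC-3 monoculture. The core regulator PSMF1 was 1.66-fold lower (1.56 to 1.77).

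**Figure D3:**
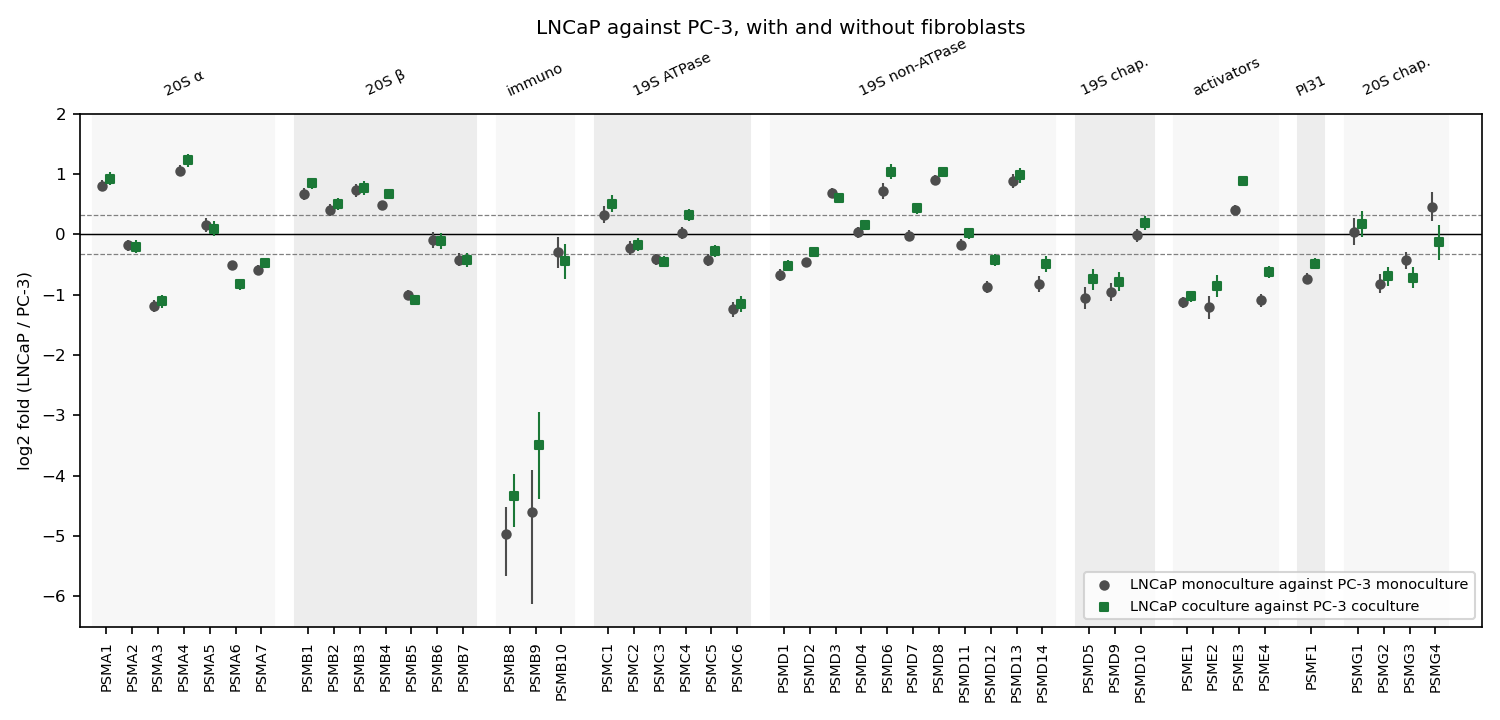
Log2 fold of each proteasome gene in LNCaP over PC-3 tissue (vertical axis), in monoculture and in coculture, with 95% intervals for counting error and dashed lines at 0.32 either side of 0. Members of a single ring or lid lie on both sides of 0, and PSMB8 and PSMB9 lie at -4.97 and -4.59 in monoculture and at -4.34 and -3.49 in coculture.

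Several of the members that were low in LNCaP tissue lie on chromosome 14. The 7 members there are PSMB5, PSME1, PSME2, PSMA6, PSMC6, PSMA3 and PSMC1, and 6 of them were lower in LNCaP than in PC-3 monoculture, 5 at least 2-fold. The 343 other genes of chromosome 14 at 20 CPM or more had a median log2 fold of -0.40, with 63.0% below 0 and 30.6% at least 2-fold lower. In windows of 10 Mb, chosen after the values were seen, the median of the other genes was -0.40 at 20 to 30 Mb (66 genes), where PSMB5, PSME1 and PSME2 lie. It was -0.42 at 30 to 40 Mb (31 genes), where PSMA6 lies at -0.52, and -1.30 at 50 to 60 Mb (48 genes), where PSMC6 and PSMA3 lie at -1.24 and -1.19. At 90 to 100 Mb, where PSMC1 lies at 0.33, it was 0.69 (33 genes). The 7 members thus stood on the same side of 0 as the genes around them, in coculture as in monoculture. In monoculture PSMB5, PSME1 and PSME2 lay further from 0 than the lower quartile of the other genes in their window, -0.85. This did not hold in coculture, where that quartile was -1.19 and PSMB5, PSME1 and PSME2 lay nearer to 0. The part of this neighbourhood in the members' values was not tested.

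The proteasome genes of LNCaP tissue differed little between coculture and monoculture, and in different directions by complex part. The member median log2 fold of LNCaP coculture over LNCaP monoculture was 0.06, beside 0.00 over all genes. At least 25% higher were 7 members, beside 16.8% of genes, and at least 20% lower were 5, beside 19.3%. PSMB9 was the only member past 2-fold higher, beside 4.56%, and no member was past 2-fold lower, beside 3.03%. The counts past the smaller threshold were near or under the background.

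All 7 α subunits were below 0, beside 49.9% of genes, with a median of -0.23, and 5 of the 7 constitutive β subunits were. PSMA2 was 1.28-fold lower (interval 1.20 to 1.38). PSMA6 had 102.0 CPM in LNCaP coculture and 161.6 CPM in LNCaP monoculture, a 1.58-fold lower level (interval 1.49 to 1.69). PSMG3 and PSMG4, which form the chaperone pair that guides α ring assembly, were 1.39-fold (1.23 to 1.57) and 1.65-fold (1.37 to 1.98) lower. The partner chaperones PSMG1 and PSMG2 lay at log2 folds of 0.29 and 0.07. In contrast 12 of 17 subunits of the 19S particle were above 0, beside 50.1% of genes, with a median of 0.13, led by PSMD12 at 1.30-fold (1.20 to 1.40) and PSMD1 at 1.251-fold (1.165 to 1.343). The base chaperone PSMD5 lay at a log2 fold of 0.34. All 4 caps were above 0, and PSME3 and PSME4 were both 1.35-fold higher (1.28 to 1.42 and 1.24 to 1.47).

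PSMB8 was 1.67-fold higher in LNCaP coculture than in LNCaP monoculture (interval 1.02 to 2.78), and PSMB9 was 2.42-fold higher (1.01 to 6.38). These rest on the 46 and 28 counts and the 19 and 8 counts given above, and PSMB9 was left out by a minimum of 5 CPM. PSMB10 went the other way, 1.28-fold lower (1.04 to 1.57). The fibroblast markers moved with these values, at 900.2 CPM in LNCaP coculture and 1.08 CPM in LNCaP monoculture, and their part in the result was not tested.

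In PC-3 tissue the coculture members leaned lower. The median log2 fold of PC-3 coculture over PC-3 monoculture was -0.11, beside 0.00 over all genes, and 35 of 46 members were below 0, beside 49.2% of genes. No member was at least 25% higher, beside 11.8%, and 5 were at least 20% lower, beside 12.4% of genes at 1 CPM or more and 7.25% of genes at 20 CPM or more. No member passed 2-fold, beside 2.23% of genes higher and 1.01% lower. With the length and GC correction described below, 23 members were below 0 and 23 above, the median was 0.01 and 0 members were at least 20% lower. The 5 members without it were PSMA4, PSMA6, PSMA7 and PSMA2 of the α ring and the base chaperone PSMD10. PSMA4 had 64.2 CPM in PC-3 coculture and 84.4 CPM in PC-3 monoculture, 1.32-fold lower (interval 1.21 to 1.43), and PSMA6 was 1.28-fold lower (1.22 to 1.34). The remaining α subunits PSMA1, PSMA3 and PSMA5 were also below 0. The highest were PSMD1 at 1.12-fold (1.06 to 1.19), PSMG1 at 1.12-fold (0.957 to 1.30) and PSMD2, a scaffold of the 19S base, at 1.09-fold (1.05 to 1.13). PSMB8 was at 1.05-fold (0.959 to 1.15) and PSMB9 at 0.993-fold (0.827 to 1.19). The summed fibroblast markers were at 510.5 CPM in PC-3 coculture and 50.8 CPM in PC-3 monoculture, and their part in these values was not tested.

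**Figure D4:**
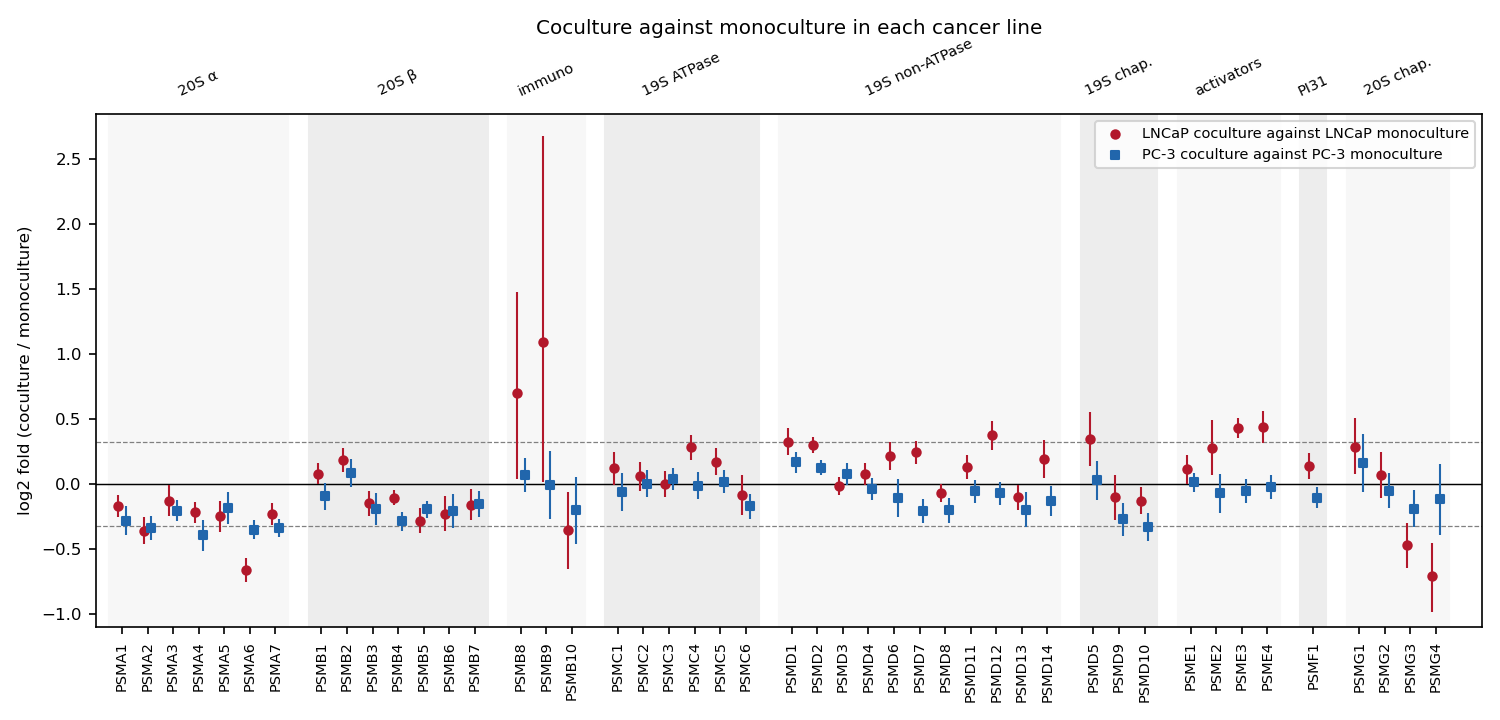
Log2 fold of each proteasome gene in coculture over monoculture (vertical axis) for LNCaP and PC-3 tissues, with 95% intervals for counting error and dashed lines at 0.32 either side of 0. The 7 α subunits lie below 0 in both lines, and the 4 caps lie above 0 in LNCaP tissue, with PSMB9 at 1.09 on 19 and 8 counts.

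Transcript length moved with the coculture values of all genes, so it is given beside the α ring result. Genes of under 800 bases at 20 CPM or more had a median log2 fold of -0.35 in the LNCaP coculture comparison (400 genes) and of -0.28 in the PC-3 coculture comparison (382 genes). Genes of 3000 to 4000 bases had medians of 0.08 and 0.04. Proteasome transcripts are short, with a median of 1426 bases, and of 954 bases for the 20S rings and 1590 bases for the 19S particle, beside 2409 bases over all genes. After a smooth trend with length and GC content was taken off, the α ring median was -0.14 in the LNCaP and -0.13 in the PC-3 comparison, with 6 of 7 subunits below 0 in each, beside 46.3% of genes in the LNCaP and 45.1% in the PC-3 comparison. The constitutive β ring median was 0.05 in the LNCaP and 0.03 in the PC-3 comparison. The 19S median in LNCaP tissue was 0.14 after the correction and the cap median 0.38, beside 0.13 and 0.35 without it.

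**Figure D5:**
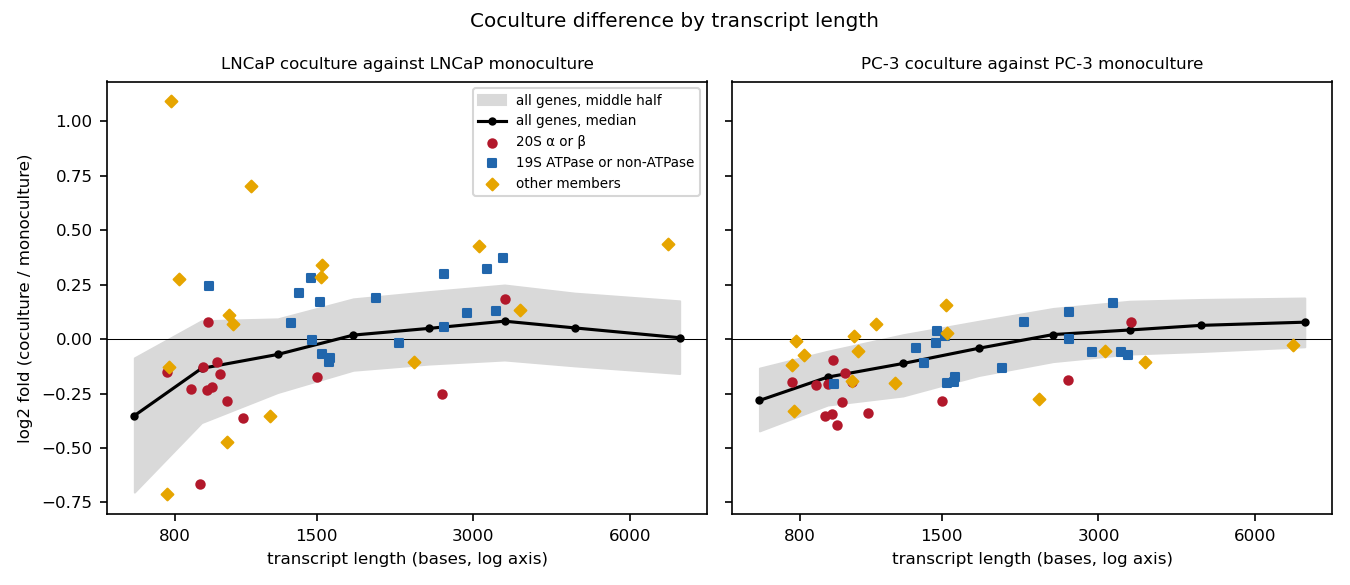
Log2 fold in coculture over monoculture (vertical axis) against transcript length (horizontal axis, bases, log axis) for LNCaP tissue at left and PC-3 tissue at right; the black line is the median of all genes at 20 CPM or more and the grey band their middle 50%. The short 20S genes lie where the all-gene median is below 0, and in LNCaP tissue the 19S genes lie mostly above the line.

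Set side by side, the coculture folds were below 0 in both lines for 20 members (43.5%, beside 27.7% of genes) and above 0 in both for 9 (19.6%, beside 29.3%). For 15 members the fold was above 0 in LNCaP and below 0 in PC-3 tissue (32.6%, beside 21.5%). The difference of the coculture effects, LNCaP minus PC-3, had a member median of 0.13 on the log2 scale and 0.09 after the length correction, beside 0.02 over all genes. It was above 0 for 35 of 46 members, beside 52.4% of genes. Its counting interval lay above 0 for 20 members, beside 23.8%, and below 0 for 3, PSMA6, PSMG3 and PSMG4, beside 20.6%. The caps PSME3 and PSME4 had differences of 0.48 (interval 0.37 to 0.60) and 0.46 (0.31 to 0.61), and the lid subunits PSMD7 and PSMD12 had 0.45 (0.32 to 0.58) and 0.45 (0.30 to 0.59). The 19S particle supplied 10 of the 20 members, of its 17. Because each value comes from 1 library per group, the spread between tissues is not in these intervals. The summed fibroblast markers were unequal, at 900.2 CPM in LNCaP coculture and 510.5 CPM in PC-3 coculture. Their part in the differences was not tested.

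Genes around the proteasome were read from lists. There were 14 genes of MHC class I presentation, which carry peptides made by the proteasome to the cell surface. All 14 were above 0 in both coculture comparisons, beside 29.3% of genes. Their medians were 0.54 in LNCaP and 0.36 in PC-3 tissue. At least 25% higher were 10 in LNCaP tissue, beside 16.8% of genes, and 8 in PC-3 tissue, beside 11.8%. TAP1, a peptide transporter gene that lies between PSMB8 and PSMB9 on chromosome 6, had 975 counts in LNCaP coculture, 580 in LNCaP monoculture, 2702 in PC-3 coculture and 2077 in PC-3 monoculture. In the LNCaP against PC-3 monoculture comparison 10 of the 14 were at least 2-fold lower, beside 23.6% of genes, with a median of -1.21. PSMB8 and PSMB9 shared this direction.

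Of 11 genes of interferon signalling, 7 were at least 2-fold lower in LNCaP than in PC-3 monoculture, beside 23.6% of genes, with a median of -1.82. In the same comparison 3 of the 11 were above 0, beside 51.3% of genes. IRF1, a transcription factor known to drive PSMB9, had 179 counts in LNCaP coculture, 119 in LNCaP monoculture, 654 in PC-3 coculture and 484 in PC-3 monoculture. The kinase gene JAK1 had 263 counts in LNCaP coculture, 130 in LNCaP monoculture, 1783 in PC-3 coculture and 1560 in PC-3 monoculture. In the coculture comparisons 3 of the 11 were at least 25% higher in each line, beside 16.8% of genes in LNCaP and 11.8% in PC-3 tissue, with medians of 0.16 in LNCaP and 0.13 in PC-3 tissue.

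The 6 regulators of proteasome gene expression had a median log2 fold of 0.31 in the LNCaP coculture comparison. Of these, 5 were above 0, beside 50.1% of genes. In the PC-3 coculture comparison their median was 0.07, with 4 above 0, beside 50.8% of genes. Their median was -0.38 in the LNCaP against PC-3 monoculture comparison. There 0 were past 2-fold in either direction, beside 22.1% of genes higher and 23.6% lower. NFE2L1, the transcription factor that raises proteasome genes when degradation is blocked, had 7156 counts in LNCaP coculture, 5842 in LNCaP monoculture, 9579 in PC-3 coculture and 8897 in PC-3 monoculture. Its log2 fold was 0.32 in the LNCaP and 0.13 in the PC-3 coculture comparison. VCP, the ATPase that extracts NFE2L1 from the membrane, had 10862 counts in LNCaP coculture, 8761 in LNCaP monoculture, 5335 in PC-3 coculture and 4775 in PC-3 monoculture, and was at 0.89 in the LNCaP against PC-3 monoculture comparison. Among 11 partners of the proteasome, 1 was at least 25% higher, beside 16.8% of genes, and 2 were at least 20% lower, beside 19.3%, in the LNCaP coculture comparison. POMP, the chaperone that completes the 20S core, was at -0.38 there and at -0.22 in the PC-3 coculture comparison. The deubiquitinase gene UCHL5 was at 1.06 in the LNCaP against PC-3 monoculture comparison, and the ubiquitin receptor gene ADRM1, its binding site on the 19S particle, was at -0.96. Of 6 genes for ubiquitin and its activating enzymes, RPS27A, which encodes ubiquitin joined to a ribosomal protein and has many near-identical copies, was at -1.26 in the LNCaP and -0.57 in the PC-3 coculture comparison.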

How the data were processed

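Per the labels' protocols, libraries were made with the TruSeq RNA v2 kit, which does not mark strand, from QIAshredder and RNeasy extracts. The deposited table holds the authors' estimated counts per gene symbol, unscaled. The submitters' processing notes name FastQC, STAR, Partek and hg38. Roles and versions: not given in the sources used here. The values were rounded to whole numbers (4 members lay more than 0.1 from whole in a library). Libraries were scaled with edgeR 4.0.16 TMM factors (R 4.3.3); CPM and counts are 1 value per group. Folds are ratios of scaled counts with exact conditional binomial 95% intervals (scipy 1.17.1); log2 folds use a prior count of 2. With 1 library per group there is no test and no p-value; calls are log2 folds of at least 0.32 (25% higher or 20% lower), or 2-fold, among genes that reach 1 CPM in either library. Transcript lengths are medians over GENCODE 29 basic coding transcripts, found for 17082 genes; a loess trend (span 0.5) with length and GC gave corrected folds. The calculation of folds and intervals was run on simulated Poisson counts with known library scalings. Those counts hold no spread between tissues and no length trend, so the run checks the calculation only.

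Promoters were matched by symbol in RefSeq on GRCh38.p14, for 40 of 46 members; positions of chromosome 14 genes are from the same build. Named are the immunoproteasome subunits, their counterparts and caps, and, per comparison, the 3 highest and lowest members and those past the smaller threshold (where there are more, the 10 furthest, with others chosen after their values were seen). The highest and lowest per kilobase of a complex part are given mainly where 1 gene held that place in every library, and of the other lists only some genes are named. The members and lists were chosen with earlier results of these data known. Several members overlap other genes (PSMA3, PSMB7, PSMB8, PSMC1, PSMC2, PSMC5, PSMD1, PSMD6, PSMD10 and PSMG2) or have processed copies, so their reads could be split or shared. Alternatives were total-count scaling, DESeq2 1.42.0 size factors, unrounded values, no minimum, 5 CPM and 20 CPM minimums, a prior count of 0.5, length and GC correction, and members without the immunoproteasome subunits, PSME1 and PSME2. Total counts per library give the depth; intervals cover counting error only, and without molecular identifiers a read is not always a separate molecule. Values of 1 gene of the interferon signalling list are not reported here.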

Additional observations from a re-analysis of the deposited data

Results flagged for a closer look

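For 3 members the coculture folds pointed in opposite directions in the lines with both counting intervals clear of 0; the differences between lines could not be tested with 1 library per group. PSMD7, a lid subunit that pairs with the deubiquitinase PSMD14, had log2 folds of 0.24 in LNCaP and -0.21 in PC-3 tissue, a difference of 0.45. PSMD14 itself had 0.19 and -0.13, a difference of 0.32, and the core regulator PSMF1 had 0.13 and -0.11, a difference of 0.24. PSMD7 had 2319 counts in LNCaP coculture against 1995 in LNCaP monoculture, and 1739 in PC-3 coculture against 2044 in PC-3 monoculture. With the length and GC correction the opposite directions were not kept for PSMD7, at 0.41 in LNCaP and 0.01 in PC-3 tissue. They were kept for PSMD14, at 0.16 and -0.07, and for PSMF1, at 0.07 and -0.14.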

How the results depend on the processing

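No paired analysis was possible because each group has 1 library. No value changed sign past a call under any alternative run, and total-count scaling, unrounded values, a prior count of 0.5 and no minimum moved none of the member counts or medians past 1.5 times or their spread; without a minimum, 3 shares of all genes past 2-fold moved more. Scalings moved the all-gene medians by under 0.1. Members at least 2-fold higher in the LNCaP than in the PC-3 monoculture came to 0 with DESeq2 size factors and 0 with the length and GC correction, and those in the LNCaP against PC-3 coculture comparison came to 1 with the correction. Members at least 2-fold higher in the LNCaP coculture than in the LNCaP monoculture came to 0 with the 5 CPM minimum, the 20 CPM minimum, or without the immunoproteasome subunits, PSME1 and PSME2, since PSMB9 was then left out. Leaving out those 5 genes gave 5 members at least 2-fold lower in LNCaP than in PC-3 monoculture, and 3 in LNCaP than in PC-3 coculture. With the length and GC correction, the PC-3 coculture member median was 0.0068 and 0 members were at least 20% lower, and 2 were at least 20% lower in the LNCaP coculture; with principal transcript lengths, chosen after seeing the data as was the 20 CPM minimum, the PC-3 values were 0.031 and 1. Of 230 gene values, 76 moved beyond counting error under the correction and 2 under DESeq2 size factors. Depth limits PSMB8 and PSMB9 in LNCaP tissue, which rest on 8 to 46 counts.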
